A study of Mus musculus with 16 samples.

Results

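The transcripts of the hypoxia-inducible factor (HIF) subunits and of the transcription factors that act back on HIF were followed in mouse tail tendon fascicles, the collagen strands of the tail, with and without Vhl. The set was given by name as 9 genes, and all 9 were found among 25719 listed genes after Ensembl identifiers were matched to mouse symbols: Hif1a, Epas1 and Hif3a for the alpha subunits, Arnt and Arnt2 for the beta subunits, and Bhlhe40, Bhlhe41, Cited2 and Mxi1 for the feedback factors. By the mouse annotation these are Hif1a (ENSMUSG00000021109) on chromosome 12, Epas1 (ENSMUSG00000024140) on chromosome 17, Hif3a (ENSMUSG00000004328) on chromosome 7, Arnt (ENSMUSG00000015522) on chromosome 3, Arnt2 (ENSMUSG00000015709) on chromosome 7, Bhlhe40 (ENSMUSG00000030103) on chromosome 6, Bhlhe41 (ENSMUSG00000030256) on chromosome 6, Cited2 (ENSMUSG00000039910) on chromosome 10 and Mxi1 (ENSMUSG00000025025) on chromosome 19. RNA sequencing covered 16 libraries. Knockout libraries (KO, 8) carry ScxCre;Vhlf/f, in which Cre under the control of Scx, a gene of the tendon lineage, removes the floxed part of Vhl, while other cells of the strand keep the gene. Control libraries (WT, 8) are labelled wild type, and whether those mice carried a floxed allele or the driver is not given in the sources used here, nor are age and sex. The labelled cell type is every cell of the tissue, so each value is an average over tenocytes and whatever else was pulled with them. The labels number the libraries without saying that each is a separate mouse, so p-values measure the spread between these libraries, which may be technical.

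HIF is a dimer of an oxygen-regulated alpha subunit and a beta subunit that is present at any oxygen level. When oxygen is available, prolyl hydroxylases mark the alpha subunit, the VHL protein binds the marked protein and it is degraded, so that most of the control of HIF1A and HIF2A (the product of Epas1) takes place on the protein and not on the transcript. The dimer switches on genes through short DNA elements, and some of those genes limit it in turn. HIF3A lacks much of the activating part of its relatives, and a short form of it blocks HIF1A. CITED2 takes the place of HIF1A on the coactivators p300 and CBP, BHLHE40 and BHLHE41 are repressors that bind E-box DNA and also belong to the circadian clock, and MXI1 binds MAX and opposes MYC.

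Promoter windows are shown for the 3 genes whose KO libraries all lay above all WT libraries (Hif3a, Cited2, Mxi1) and for Bhlhe41, which was lower in the KO, so that the HIF core element can be compared between them. The windows are from RefSeq on GRCm38.p6, run from 250 bases before to 50 bases after the annotated start, and are written 5′ to 3′ on the gene's strand. Capitals mark ACGTG or GCGTG, the core of the HIF response element, on either strand (read on this strand as CACGT or CACGC). Of the 3 Mxi1 windows the middle one is shown.
Hif3a, chr7:17062378-17062677, minus strand: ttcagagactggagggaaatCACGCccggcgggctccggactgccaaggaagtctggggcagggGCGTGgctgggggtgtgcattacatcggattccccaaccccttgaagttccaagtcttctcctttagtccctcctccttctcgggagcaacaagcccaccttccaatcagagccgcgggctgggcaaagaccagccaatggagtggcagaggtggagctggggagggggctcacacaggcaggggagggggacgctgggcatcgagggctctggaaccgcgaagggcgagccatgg
Cited2, chr10:17722978-17723277, plus strand: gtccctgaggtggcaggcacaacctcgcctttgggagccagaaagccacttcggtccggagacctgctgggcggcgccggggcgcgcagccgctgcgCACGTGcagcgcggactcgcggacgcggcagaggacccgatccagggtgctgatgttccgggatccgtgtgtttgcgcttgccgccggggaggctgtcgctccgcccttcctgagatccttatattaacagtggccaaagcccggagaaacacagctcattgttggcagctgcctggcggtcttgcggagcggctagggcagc
Mxi1, chr19:53329163-53329462, plus strand: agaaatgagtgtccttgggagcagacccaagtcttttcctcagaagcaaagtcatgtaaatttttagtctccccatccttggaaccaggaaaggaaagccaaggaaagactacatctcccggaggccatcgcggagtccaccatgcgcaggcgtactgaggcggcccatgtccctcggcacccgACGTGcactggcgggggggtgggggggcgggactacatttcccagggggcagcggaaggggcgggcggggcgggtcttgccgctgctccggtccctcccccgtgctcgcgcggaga
Bhlhe41, chr6:145865371-145865670, minus strand: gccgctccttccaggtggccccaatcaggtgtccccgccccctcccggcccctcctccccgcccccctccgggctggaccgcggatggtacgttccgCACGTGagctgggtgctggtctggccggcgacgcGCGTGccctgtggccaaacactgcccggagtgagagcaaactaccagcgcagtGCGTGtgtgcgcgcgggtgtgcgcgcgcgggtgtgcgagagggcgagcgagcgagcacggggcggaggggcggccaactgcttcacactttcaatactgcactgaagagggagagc

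The table held windows for 7 of the 9 genes, 9 windows in all. Mxi1 gave 3 of these windows, and its middle and last windows overlap. G and C made up 56% to 76.7% of the bases of a window, and the background windows were not matched for this. ACGTG or GCGTG on either strand was present in 7 of the 9 windows, against 43.8% of 32851 windows of the same length. ACGTG alone was in 5 of the 9 (19.6% of all windows). The E-box CACGTG, a palindrome that holds ACGTG on both strands and is the sequence that BHLHE40, BHLHE41 and MAX dimers bind, was in 3 of the 9 (7.15% of all windows): those of Hif1a, Bhlhe41 and Cited2. Hif3a and Arnt held GCGTG only, and neither core was in the window of Arnt2 or in the first of the 3 Mxi1 windows. The element was therefore present both in windows of genes that were higher and in that of Bhlhe41, and a match of letters is no evidence of binding.

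KO libraries held 10488355 to 18753254 counts each and WT libraries 10792900 to 16379401. Values below are CPM, counts divided by library size as scaled with the trimmed mean of M-values (TMM). Genotypes were compared by the quasi-likelihood test of edgeR, and each edgeR adjusted p below is corrected by the Benjamini-Hochberg method over all tested genes. Of 14803 tested genes, 48.3% had an edgeR adjusted p under 0.05, 25.6% higher and 22.7% lower in the KO, and 19.4% had KO and WT libraries that did not overlap, 10.8% with the KO higher and 8.61% with the KO lower. Vhl itself lay between 7.51 and 10.9 CPM in KO libraries (median 9.52) and between 14.1 and 25.8 CPM in WT libraries (median 20.6), so every library matched its label. Of 8 tested tenocyte markers 5 were lower and 1 was higher, and their summed level lay between 77411 and 180874 CPM in the KO and between 130079 and 379482 CPM in the WT. Markers of other cells were also present: the 15 skeletal muscle markers summed to between 428 and 25553 CPM in the KO and between 104 and 11090 CPM in the WT, with 1 of the 15 called higher, and the 12 endothelial markers, 6 of 8 tested being higher, to between 61.5 and 545 CPM in the KO and between 40.2 and 57.3 CPM in the WT. Erythroid markers (5 of 5 tested higher, 77.3 to 560 CPM in the KO and 15.1 to 50.7 CPM in the WT), mural cell markers (5 of 8 tested higher, 1 lower) and macrophage markers (4 of 10 higher) moved with genotype as well, and the part of these cells in the results below was not tested. None of the muscle or endothelial markers was at 0 in every library. In such bulk RNA fewer cells of a type and less RNA per cell cannot be told apart.

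Transcripts of 6 of the 9 genes differed between the genotypes, against the 48.3% of all genes that did so. Higher in the KO were Hif3a (10.8-fold), Mxi1 (1.85-fold), Cited2 (1.73-fold) and Bhlhe40 (1.25-fold). Lower were Bhlhe41 (1.30-fold) and Arnt (1.17-fold). Hif1a, Epas1 and Arnt2 did not pass the threshold. KO and WT libraries did not overlap for Hif3a, Cited2 and Mxi1 with the KO higher (3 of 9, beside 10.8% of all genes) and for Arnt with the KO lower (1 of 9, beside 8.61%). The members' median log2 fold change was 0.21, where that of all tested genes was 0.02, and from these shares nothing particular to the group is read.

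**Figure D1:**
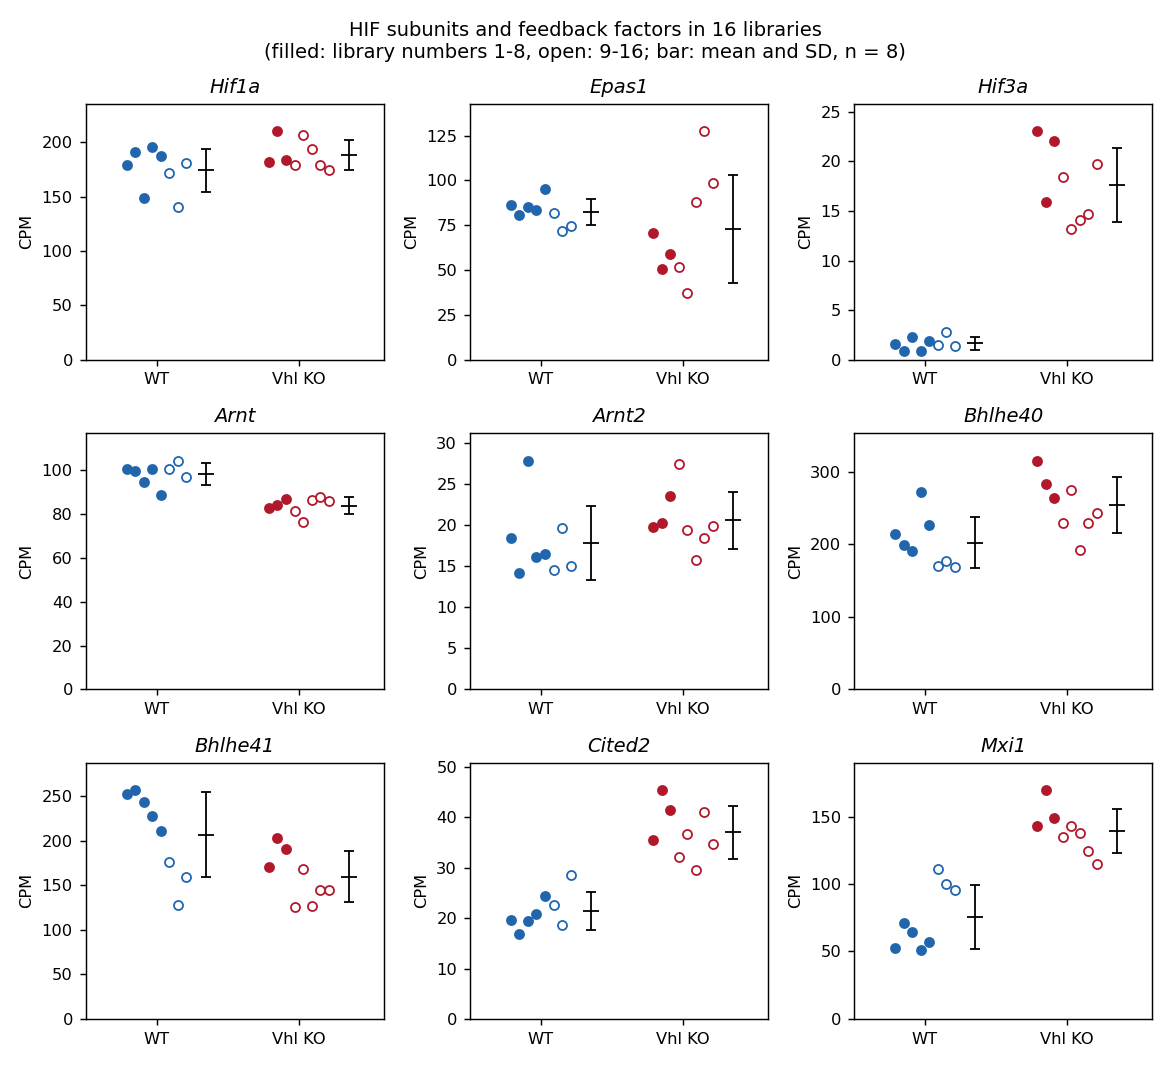
CPM of each gene in every library (y axis, from 0) for 8 WT and 8 KO libraries (x axis); filled points are the first 8 and open points the last 8 libraries in the submitters' numbering, and bars give mean and SD. Hif3a, Cited2, Mxi1 and Arnt separate the genotypes, Epas1 is spread from 37.0 to 128 CPM in the KO, and filled and open WT points stand apart for Mxi1, Bhlhe41 and Bhlhe40.

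Among the alpha subunits, Hif1a, the subunit in the title of the series, lay between 174 and 210 CPM in the KO (median 183) and between 141 and 196 CPM in the WT (median 180). The ranges overlapped from 174 to 196 CPM. Its log2 fold change was 0.11 (SE 0.0731, edgeR adjusted p = 0.219), although with libraries scaled to total counts alone it was 0.42 (edgeR adjusted p = 9.49e-05), on a scale where the median of all genes moved from 0.02 to 0.32. Exons of Hif1a share 330 bases with the antisense gene Gm15283, not analysed here, and 148 bases with Gm49321 on the same strand, which was itself counted at 21.7 ± 3.13 CPM in the KO and 21.4 ± 2.98 CPM in the WT (SD, n = 8).

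Hif3a moved most. It lay between 13.2 and 23.1 CPM in the KO (median 17.2) and between 0.837 and 2.79 CPM in the WT (median 1.54), with every KO library far above every WT library. The WT values rest on 12 to 29 counts per library and the KO values on 187 to 304, where the floor of 3 counts is at most 0.336 CPM. On the log2 scale the fold change was 3.43 (SE 0.207, edgeR adjusted p = 7.83e-11), and it stayed between 3.08 and 3.77 under every alternative analysis. Of all tested genes, 98.3% had a smaller absolute change. The counts do not separate the long from the short forms of the gene.

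Epas1, the HIF2A gene and the alpha subunit best known from vessels, varied most between KO libraries. WT libraries were close together, between 71.8 and 95.3 CPM (median 82.9), whereas KO libraries ran from 37.0 to 128 CPM (median 65.0). The 5 lowest of all 16 libraries were KO libraries and so were the 2 highest. The coefficient of variation was 41.1% in the KO and 8.75% in the WT. The difference between genotypes was -0.17 on the log2 scale (SE 0.199, edgeR adjusted p = 0.494) and turned to 0.13 with total counts (edgeR adjusted p = 0.595). Among the first 8 libraries in the submitters' numbering it was -0.52 (edgeR adjusted p = 0.00315) and among the last 8, which hold the 3 KO libraries richest in muscle markers, it was 0.075 (edgeR adjusted p = 0.903).

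In the KO, Epas1 followed the skeletal muscle markers. Across the 8 KO libraries its log2 CPM correlated with the muscle score, the mean log2 CPM of the 15 markers, with Pearson r = 0.971 (exact permutation test over 40320 pairings, p = 2.48e-05, the smallest possible, 8.93e-04 after Benjamini-Hochberg adjustment over 36 relations) and Spearman rho = 1 (exact permutation p = 4.96e-05, adjusted 0.00179). Without the 2 libraries farthest from the median score r was 0.963. In the WT, where the score spans 1.20 to 8.47, r was 0.36 (exact permutation p = 0.380, adjusted 0.594, n = 8) and rho 0.333. The difference between the genotypes in this relation was not tested, and the first 8 and last 8 libraries hold too few of a genotype for a value each. None of the other 35 relations of a member with the muscle or endothelial score passed the adjusted threshold for Pearson's r. Epas1 and the endothelial score in the KO gave r = 0.846 (exact permutation p = 0.0107, adjusted 0.129, n = 8). For Mxi1 and the endothelial score in the KO, Spearman's rho of -0.929 did (exact permutation p = 0.00223, adjusted 0.0402), where r was -0.870 (adjusted 0.0509) and -0.740 without the 2 farthest libraries. The 2 scores went together in the KO. KO 6, KO 7 and KO 8 had the highest muscle scores (8.71, 9.24 and 9.10) and also the highest endothelial scores (5.04, 5.60 and 5.15). Relations of a member with the 2 scores therefore cannot be told apart in these libraries.

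Once the muscle score was added to the fit, Epas1 was lower in the KO by -0.52 (SE 0.177, edgeR adjusted p = 0.0253). That fit gives both genotypes the same slope on the score. Epas1 climbed with the score from 37.0 to 128 CPM in the KO, while WT libraries stayed between 71.8 and 95.3 CPM. The value therefore holds only under a shared slope, and it does not separate muscle from endothelial content, whose scores went together in the KO. Without the 4 libraries with a muscle score over 8 (KO 6, KO 7, KO 8 and WT 5), a choice made after the data were seen, the Epas1 difference was -0.58 (SE 0.120, edgeR adjusted p = 8.75e-04). The KO libraries left out are also those highest in Epas1. Leaving them out lowers the KO by selection, and no conclusion is drawn from that p-value. In those KO libraries Epas1 was measured at 88.1, 128 and 98.7 CPM, and in the other 5 it did not exceed 70.9 CPM, below the lowest WT library. In the fits with the muscle score and without these libraries, 43.8% and 40.9% of tested genes passed the threshold. What share of Epas1 transcripts came from muscle fibres or other cells was not tested.

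**Figure D2:**
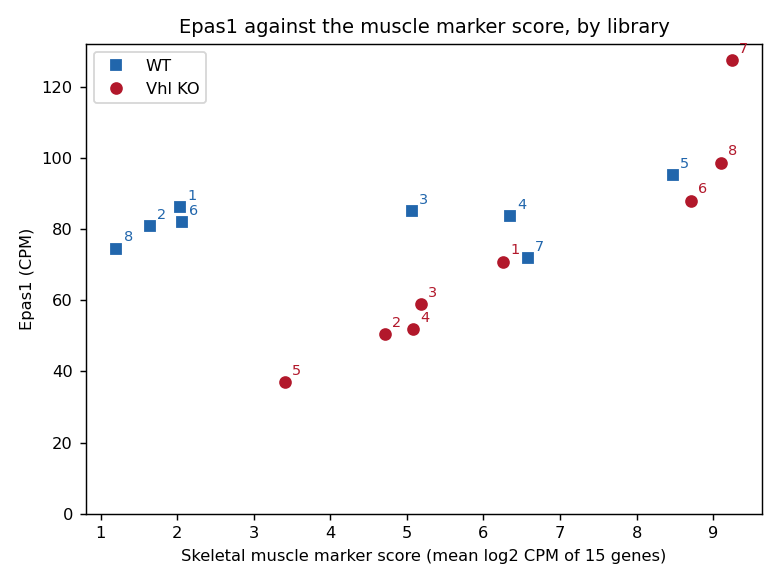
Epas1 in CPM (y axis, from 0) against the skeletal muscle marker score in mean log2 CPM (x axis), 1 point per library with its replicate number, squares for WT and circles for KO. KO points climb with the score from 37.0 to 128 CPM, while WT points stay between 71.8 and 95.3 CPM.

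Ratios between genes of 1 library do not depend on how libraries are scaled, and 6 were compared with exact permutation tests over 12870 assignments (two-sided, n = 8 per group, smallest possible p 0.000155). The log2 ratio of Hif3a to Hif1a counts rose by 3.23 (exact p = 0.000155, Benjamini-Hochberg adjusted 0.000466) and that of Hif3a to Epas1 by 3.63 (the same p-values). The size of these rises depends on the prior count of 2, because WT counts of Hif3a were low. With a prior count of 0.5 or 5 the rise was 3.35 or 3.04 against Hif1a and 3.74 or 3.43 against Epas1. The ratio of Epas1 to Hif1a was -1.47 ± 0.653 in the KO and -1.08 ± 0.16 in the WT (SD, n = 8), a difference of -0.39 that did not pass the exact test (p = 0.124, adjusted 0.124). With 1 library left out in turn, it did not pass in 15 of 16 sets. The exception was the set without KO replicate 7, the library richest in muscle markers and highest in Epas1, at -0.53 (adjusted 0.0194). The share of Hif3a in the summed level of the 3 alpha subunits, per kilobase of exon, was 5.58% ± 1.36 in the KO and 0.569% ± 0.283 in the WT, so its transcripts remained the smallest part in both.

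Of the beta subunits, Arnt, the general partner of the alpha subunits, was the steadiest of the 9 genes, with a coefficient of variation of 4.48% in the KO and 4.96% in the WT. It lay between 76.4 and 87.7 CPM in the KO (median 85.0) and between 88.6 and 104 CPM in the WT (median 100.3). All KO libraries were below all WT libraries, by a narrow margin. As a log2 fold change the difference was -0.23 (SE 0.0476, edgeR adjusted p = 5.30e-04), but with total counts it was 0.077 (edgeR adjusted p = 0.265), where the median gene stood at 0.32. The log2 ratio of Arnt to Hif1a, free of that choice, was lower in the KO by -0.34 (exact permutation p = 0.000622, adjusted 0.000932, n = 8). A ratio does not tell which of the genes moved, and with total counts Hif1a was at 0.42 (edgeR adjusted p = 9.49e-05).

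Arnt2, a partner subunit best known from neural tissue, lay between 15.8 and 27.5 CPM in the KO (median 19.9) and between 14.1 and 27.9 CPM in the WT (median 16.3). The highest value of all was that of WT replicate 3. The log2 fold change was 0.21 (SE 0.133, edgeR adjusted p = 0.213), and without WT replicate 3 it was 0.32 (edgeR adjusted p = 0.0161). The log2 ratio of Arnt2 to Arnt rose by 0.45 (exact permutation p = 0.0109, adjusted 0.0131, n = 8). Arnt2 thus took 20.3% ± 2.97 of the summed beta subunits per kilobase in the KO and 15.8% ± 3.40 in the WT.

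**Figure D3:**
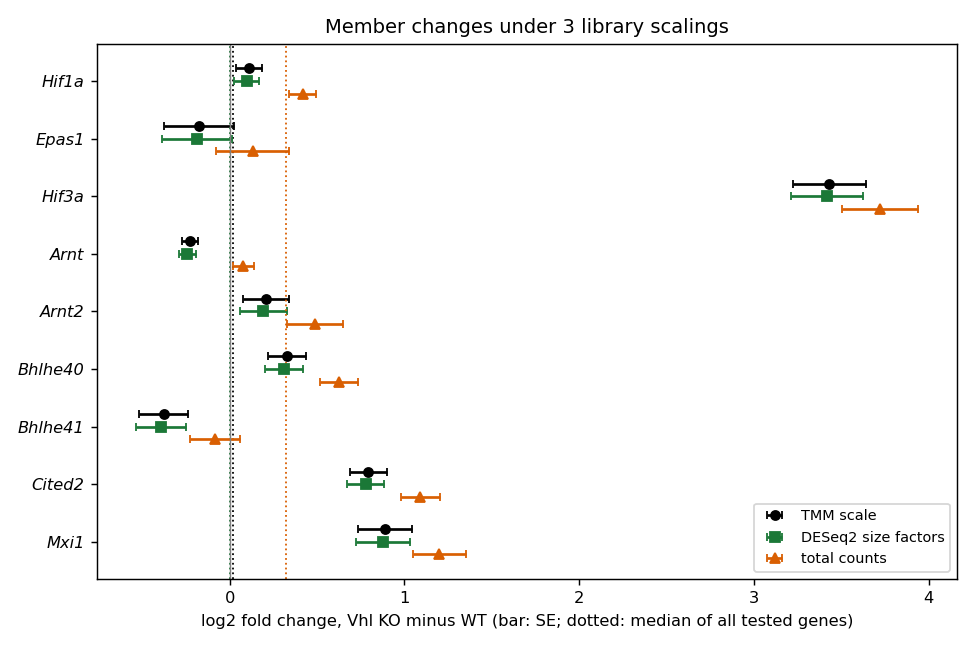
Log2 fold change, KO minus WT (x axis), of each gene (y axis) with its SE, under TMM, DESeq2 size factors and total counts; dotted lines are the median of all tested genes on each scale. Hif3a, Mxi1, Cited2 and Bhlhe40 lie to the right of 0 on all 3, Arnt and Epas1 change sign with total counts, and Bhlhe41 moves from -0.38 to -0.083.

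The 2 paralogous repressors went opposite ways on the TMM scale. Bhlhe40 lay between 192 and 315 CPM in the KO (median 253) and between 169 and 272 CPM in the WT (median 195). The groups overlapped, and the log2 fold change was 0.33 (SE 0.108, edgeR adjusted p = 0.0179), above the threshold on all 3 scales. Bhlhe41 lay between 126 and 203 CPM in the KO (median 156) and between 128 and 256 CPM in the WT (median 219.6). Its log2 fold change was -0.38 (SE 0.141, edgeR adjusted p = 0.0334). This call is weak: it was lost when any 1 of 8 particular libraries was left out (KO replicates 4, 6, 7 and 8 and WT replicates 1, 2, 3 and 4), with total counts, where the value was -0.083 (edgeR adjusted p = 0.622), and with the muscle score in the fit, at -0.30 (edgeR adjusted p = 0.114).

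The balance within the pair shifted as well. The log2 ratio of Bhlhe41 to Bhlhe40 counts was -0.68 ± 0.157 in the KO and 0.01 ± 0.297 in the WT (SD, n = 8), a difference of -0.69 (exact permutation p = 0.000311, adjusted 0.000622). The ranges met at their ends, with -0.46 as the highest KO and -0.47 as the lowest WT value. Per kilobase, Bhlhe40 made up 69.5% ± 2.30 of the pair in the KO and 58.5% ± 4.96 in the WT. Exons of Bhlhe41 share 1280 bases with Gm43909, a predicted gene on the other strand, which was at 62.0 ± 12.3 CPM in the KO and 75.2 ± 15.2 CPM in the WT. The exons of Bhlhe41 span 6720 bases in all. The use of strand during counting is not given in the sources used here, so reads from the shared bases cannot be assigned to 1 of the 2 genes.

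Cited2, the competitor of HIF1A for p300, lay between 29.6 and 45.4 CPM in the KO (median 36.1) and between 16.9 and 28.6 CPM in the WT (median 20.3). The lowest KO library was just above the highest WT library. Its log2 fold change was 0.79 (SE 0.106, edgeR adjusted p = 4.05e-06), and it was past the threshold under all alternatives, with values from 0.57 to 1.09.

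Mxi1 lay between 115 and 170 CPM in the KO (median 140) and between 50.9 and 111 CPM in the WT (median 67.7). Every KO library was above every WT library, the nearest pair being 115 and 111 CPM. On the log2 scale the fold change was 0.89 (SE 0.155, edgeR adjusted p = 1.15e-04). Exons of Mxi1 share 194 bases with Gm10197 on the other strand, itself measured at 24.9 ± 3.43 CPM in the KO and 14.0 ± 4.21 CPM in the WT, and called higher as well (log2 fold change 0.83, edgeR adjusted p = 1.56e-04).

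The size of the Mxi1 difference depended on where a library stood in the submitters' numbering from 1 to 16. The labels name no batch. The first 8 libraries hold 3 KO and 5 WT and the last 8 hold 5 KO and 3 WT. Mxi1 in the WT was at 52.5, 70.8, 64.6, 50.9 and 56.9 CPM in the first 8 and at 111, 99.9 and 95.7 CPM in the last 8, with no overlap. KO values were 143, 170 and 149 CPM in the first 8 and between 115 and 143 CPM in the last 8. The log2 fold change was therefore 1.38 (SE 0.114, edgeR adjusted p = 3.09e-06) among the first 8 libraries and 0.35 (SE 0.0954, edgeR adjusted p = 0.0142) among the last 8, both past the threshold that 32.8% and 37.9% of tested genes passed in these sets. Their difference, tested after the values were seen, was -1.02 (SE 0.152, interaction term, edgeR adjusted p over all genes = 0.0149), and 10 of 14803 genes (0.0676%) passed this test. What differs between the first and last libraries was not tested.

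Levels of Bhlhe41 and, in the WT, of Bhlhe40 also differed with the numbering. The 5 early WT libraries of Bhlhe40 spanned 190 to 272 CPM and the 3 late ones 169 to 177 CPM, without overlap, while its KO libraries overlapped (263 to 315 and 192 to 274 CPM). With the position as a term its log2 fold change was 0.41 (edgeR adjusted p = 4.66e-04). For Bhlhe41 the 5 early WT libraries spanned 211 to 256 CPM and the 3 late ones 128 to 176 CPM, while the 3 early KO libraries spanned 171 to 203 CPM and the 5 late ones 126 to 168 CPM. In both genotypes every one of the last libraries for Bhlhe41 was below every one of the first. The Bhlhe41 log2 fold change between genotypes was -0.34 (edgeR adjusted p = 0.0209) among the first 8 and -0.13 (edgeR adjusted p = 0.433) among the last 8, and -0.23 (edgeR adjusted p = 0.0312) over all libraries with the position as a term, a fit in which 48.8% of genes passed. The interaction for Bhlhe41 did not pass (0.22, edgeR adjusted p = 0.603). Among the members past the threshold over all libraries, Hif3a (3.77 and 3.08), Cited2 (1.01 and 0.57) and Bhlhe40 (0.38 and 0.43) passed in both sets, while Arnt was at -0.20 (edgeR adjusted p = 0.0693) among the first and -0.28 (edgeR adjusted p = 0.0149) among the last. For these and the remaining members the interaction did not pass either, with edgeR adjusted p-values from 0.381 to 0.916. The log2 ratio of Bhlhe41 to Bhlhe40 was lower in the KO within both sets, by -0.73 (exact permutation p = 0.0357, n = 8 libraries, adjusted 0.0536) and -0.55 (exact permutation p = 0.0179, the smallest possible, adjusted 0.0268).

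**Figure D4:**
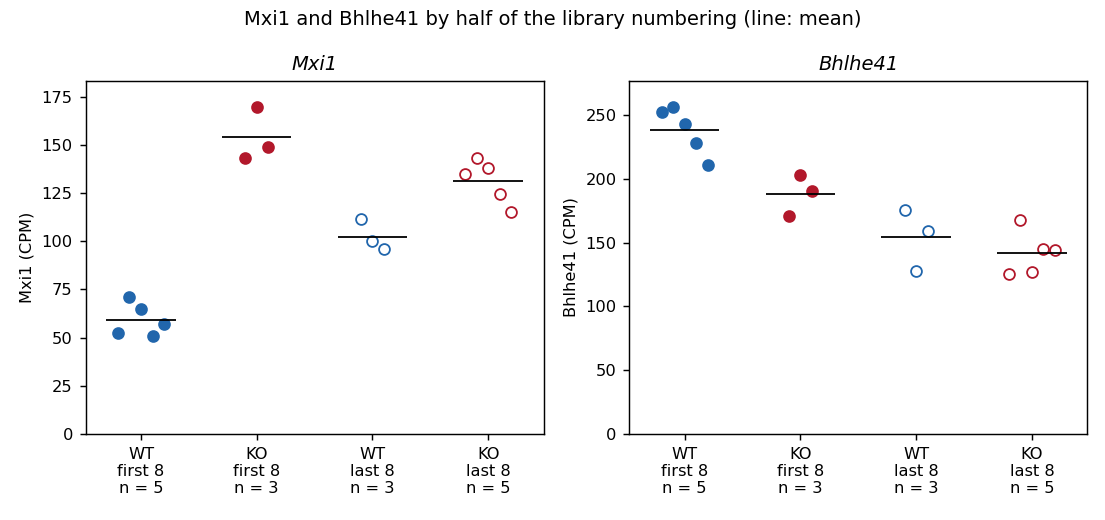
Mxi1 (left) and Bhlhe41 (right) in CPM (y axis, from 0) for WT and KO libraries of the first 8 (filled) and last 8 (open) library numbers, with a line at each mean. Mxi1 in the WT sits at 50.9 to 70.8 CPM in the first and 95.7 to 111 CPM in the last libraries, and Bhlhe41 is lower in the last libraries of both genotypes.

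Levels were compared between genes only per kilobase of merged exons. In the WT the order began with Bhlhe40 at 43.0 ± 7.45 CPM per kilobase, followed by Bhlhe41 at 30.8 ± 7.07 and Hif1a at 29.6 ± 3.35 (SD, n = 8), and the latter pair did not differ beyond their spread, with Bhlhe41 higher in 4 of 8 libraries. Epas1 (14.7 ± 1.29), Arnt (12.3 ± 0.609), Mxi1 (11.04 ± 3.47) and Cited2 (8.71 ± 1.52) came next. Of these neighbours, Epas1 exceeded Arnt in 7 of 8 libraries, Arnt exceeded Mxi1 in 5 and Mxi1 exceeded Cited2 in 5. Arnt2 (2.31 ± 0.583) and Hif3a (0.245 ± 0.0986) closed the order. In the KO, Bhlhe40 (53.9 ± 8.13) was again first and Hif1a (32.0 ± 2.30) was second, above Bhlhe41 (23.7 ± 4.25) in all 8 libraries. Mxi1 (20.5 ± 2.40) and Cited2 (15.1 ± 2.14) stood above the mean of Arnt (10.5 ± 0.469), and Hif3a (2.63 ± 0.557) reached the level of Arnt2 (2.68 ± 0.457), which was higher than it in 4 of 8 libraries.

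The genes most alike to each member were sought among 13416 others by the Pearson correlation of log2 CPM over 16 libraries, centred within genotype, as a description. For Epas1 they were Cpt1b (r = 0.952), which encodes the muscle form of a carnitine palmitoyltransferase, Tacc2 (0.948) and Cacnb1 (0.940), a subunit of the muscle calcium channel. For Bhlhe41 and Mxi1 the first was the gene that overlaps each, Gm43909 (0.965) and Gm10197 (0.927), followed by Myo9a (0.900) and Fzd8 (0.897) for Bhlhe41 and by Ift46 (0.925) and Ubxn7 (0.908) for Mxi1. Bhlhe40 was closest to Nacad (0.963), Rint1 (0.939) and Nbas (0.922), and Hif1a to Cdc16 (0.908), Igf1 (0.905) and Gnl3l (0.904). Likeness was lowest for Cited2, whose closest gene was Jdp2 at 0.747. The points share their libraries, with their depth and content of muscle RNA. Exons of Arnt2 and Bhlhe40 also share 214 and 118 bases with antisense genes that were not analysed here.

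Around these genes, the prolyl hydroxylases Egln3 and Egln1 were much higher in the KO. Of the 5 oxygen-sensing genes 4 were called, beside 48.3% of all genes. Egln3 (log2 fold change 6.08, SE 0.189, edgeR adjusted p = 1.04e-14) and Egln1 (2.43, edgeR adjusted p = 3.38e-13), which mark the alpha subunits for VHL, rose, as did Hif1an (0.20, edgeR adjusted p = 0.0184), the asparaginyl hydroxylase that keeps HIF from p300. Vhl was lower by -1.13 (edgeR adjusted p = 9.64e-08), and Egln2 stood at -0.03 (edgeR adjusted p = 0.681). Among 14 genes of a published core hypoxia signature with a single identifier, 11 rose and 1 fell, beside 25.6% and 22.7% of all genes, with a median of 1.93. Adm (4.68), Slc2a1 (4.39), Vegfa (4.04) and Mif (3.62) changed most on the log2 scale, and P4ha1 was the gene that fell (-0.80, edgeR adjusted p = 0.00397). The median of the 9 members was 0.21.

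The relatives of the members by family gave the following. Of 10 tested other bHLH-PAS factors, the family of HIF and ARNT, 3 rose and 3 fell, close to the 25.6% and 22.7% of all genes. Bmal1 (1.62, edgeR adjusted p = 1.92e-06) and Npas2 (0.96, edgeR adjusted p = 7.98e-05), which pair in the clock, and Ahr (0.91, edgeR adjusted p = 9.19e-06), the dioxin receptor that shares ARNT as its partner, were higher. The coactivator Ncoa3 was lower by -0.45 (edgeR adjusted p = 1.12e-04), and Ncoa1 and Ncoa2 fell as well. Clock, the other partner of Bmal1, was at -0.15 (edgeR adjusted p = 0.0714). Ahrr, Sim1, Sim2 and Npas4 were too low to be tested.

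Of 3 tested genes among the relatives of CITED2 and the coactivators it binds, Cited1 was at 5.03 ± 1.13 CPM in the KO and 0.944 ± 0.274 CPM in the WT (SD, n = 8) and rose by 2.39 on the log2 scale (SE 0.193, edgeR adjusted p = 4.42e-09). The coactivators Ep300 (0.09, edgeR adjusted p = 0.360) and Crebbp (0.02, edgeR adjusted p = 0.877) did not pass the threshold. In the MYC and MAX network, 4 of 9 tested genes rose and 1 fell, near the 48.3% of all genes called. Mxd3 (1.45, edgeR adjusted p = 7.19e-09), a MAX partner like MXI1, and Myc (0.78, edgeR adjusted p = 9.92e-05) were higher and Mlxip was lower (-0.47, edgeR adjusted p = 0.00238). Mlx rose by 0.38 (edgeR adjusted p = 0.000805), and Max was at 0.11 (edgeR adjusted p = 0.221). Exons of Mxd3, Mlx, Mlxip and Ncoa3 overlap genes on the other strand.

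Of 8 other tested bHLH repressors 4 rose and none fell, a called share near the 48.3% of all genes: Heyl (3.93, edgeR adjusted p = 1.99e-05), Hey1 (2.56, edgeR adjusted p = 2.90e-07), Id2 (2.53, edgeR adjusted p = 4.77e-09), an inhibitor that binds bHLH proteins without touching DNA, and Hes6 (1.15, edgeR adjusted p = 7.55e-07). In the WT Heyl (0.337 ± 0.181 CPM) and Hey1 (0.476 ± 0.247 CPM) were near the floor, and in the KO they were at 5.21 ± 4.03 and 2.79 ± 0.985 CPM (SD, n = 8). Heyl and Hey1 are Notch targets that vessel cells also express, and the summed endothelial level of the same libraries is given above. Their part in the result was not tested. Of 12 genes that act on HIF alpha turnover other than through VHL, 3 rose and none fell, beside 48.3% of all genes called and 25.6% higher: Hsp90aa1 (0.89, edgeR adjusted p = 1.99e-05), a chaperone of HIF1A, and the ubiquitin ligases Siah2 (0.59, edgeR adjusted p = 5.25e-04) and Siah1b (0.43, edgeR adjusted p = 0.0133). The other 9 did not pass.

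**Figure D5:**
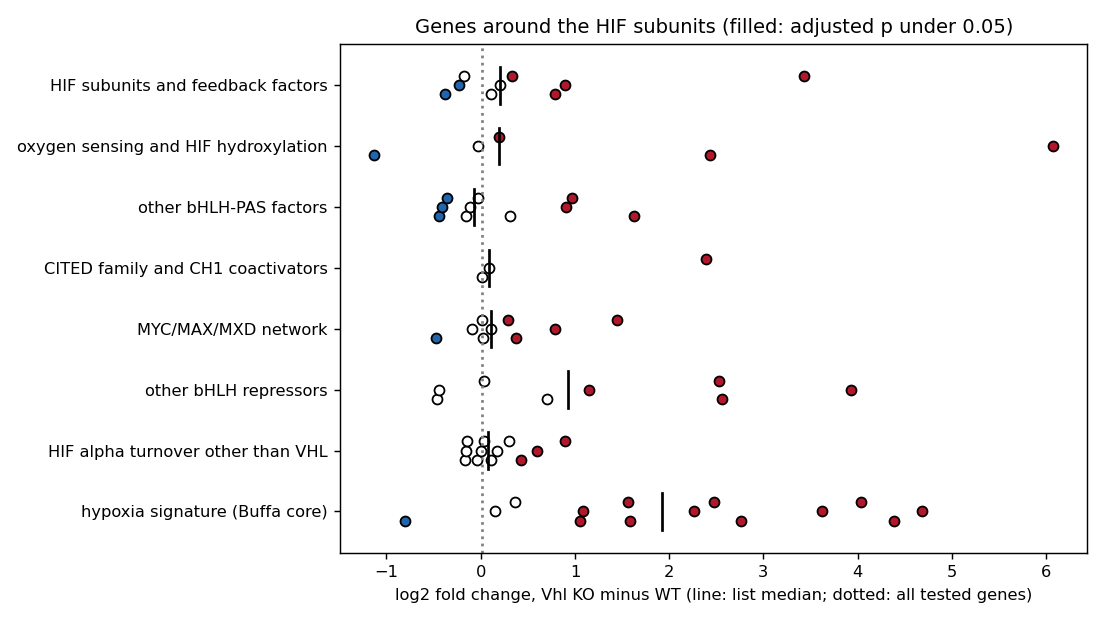
Log2 fold change, KO minus WT (x axis), of each tested gene in 8 lists (y axis), red where higher and blue where lower at an adjusted p under 0.05 and open otherwise; black lines are list medians and the dotted line is the median of all tested genes, 0.02. The HIF subunits and feedback factors lie between -0.38 and 3.43, and the hypoxia signature has its median at 1.93.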

How the data were processed

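RNA was sequenced from 16 libraries of tail tendon fascicles. The deposited files hold raw counts per Ensembl gene, 1 column per library. Per the submitters' processing notes, kallisto and featureCounts were used and the build was GRCm39, and versions, annotation and strand setting are not given in the sources used here. Of 25719 identifiers, 25614 matched a symbol. Exon overlaps and lengths came from GENCODE M21 on GRCm38, another build, so no gene coordinates are given.

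Counts were fitted with edgeR 4.0.16 (R 4.3.3): default expression filter, TMM, robust quasi-likelihood, genotype as the only term, two-sided, Benjamini-Hochberg over 14803 genes. Fold changes are KO against WT. Log2 CPM and ratios used a prior count of 2. Exact permutation tests were used for ratios and correlations. The members and lists were chosen with earlier results of these data known. The text names all 9 members and all oxygen-sensing genes, up to 4 genes past the threshold of each other list by size of change, and the 3 genes most alike to a member. Max, Clock, Egln2, Ep300, Crebbp, Ncoa1, Ncoa2 and P4ha1 were named after their values were seen.

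Intervals of counting error aside, depth gives a floor of 3 counts, 0.145 to 0.336 CPM. Within a genotype, no 2 libraries were as alike as repeat sequencing of 1 library would be (lowest chi-square per degree of freedom 6.56). Pairs across genotypes were not compared, and this check cannot show whether libraries came from separate mice. On simulated counts for this comparison (14937 genes tested) the fit recovered 94 of 100 genes changed by 1 and 99 of 100 changed by 2 on the log2 scale. Of the genes called there, 4.93% were false. Only these genes were changed, equally often up and down, with spreads taken from WT libraries. The simulation therefore does not cover smaller changes or the choice of scaling. Alternatives were DESeq2 1.42.0, limma 3.58.1 voom, sva 3.50.0, other scalings, filters and covariates, a replicate block, and left-out libraries.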

Additional observations from a re-analysis of the deposited data

Results flagged for a closer look

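The change of Mxi1 between genotypes differed between the first 8 and the last 8 libraries of the submitters' numbering, by -1.02 on the log2 scale (interaction term, edgeR adjusted p over all genes = 0.0149). This split was chosen after the values were seen, and the labels give no batch, date or animal group for it. What differs between these sets was not tested. KO libraries were higher than all WT libraries in both sets. Arnt2 in WT replicate 3, at 27.9 CPM, stood apart from the other 7 WT libraries (14.1 to 19.7 CPM): its gap to the nearest was 59.5% of the range of the group, past Dixon's 95% critical value. On the log2 scale the gap was below that value. Of 18 checks on the CPM scale, 1 for each member and genotype, this was the 1 past it, where chance gives about 0.9, and on the log2 scale none was. Leaving this library out changed the Arnt2 log2 fold change from 0.21 to 0.32 (edgeR adjusted p = 0.213 and 0.0161).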

How the results depend on the processing

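Hif3a, Cited2, Mxi1 and Bhlhe40 kept their direction and stayed past the threshold under all 15 alternatives and with each of 16 libraries left out, Hif3a between 3.08 and 3.77. Leaving out libraries gave ranges of 0.07 to 0.13 for Hif1a, -0.34 to -0.08 for Epas1, -0.25 to -0.21 for Arnt, 0.14 to 0.32 for Arnt2 and -0.46 to -0.33 for Bhlhe41, and -0.53 to -0.25 for the ratio of Epas1 to Hif1a. With total counts, Hif1a (0.42) and Arnt2 (0.49) passed the threshold, Bhlhe41 lost it (-0.083), and Epas1 (0.13) and Arnt (0.077) changed sign. On that scale 8270 genes were called higher and 1415 lower, 85.4% higher against 53.0% on the TMM scale, and called genes were 3 for the CITED list, 8 for the MYC and MAX network and 9 for HIF alpha turnover. HIF alpha turnover had 5 with limma-voom, and other bHLH repressors 7 with the DESeq2 Wald test.

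With the muscle score, surrogate variables or the endothelial score as covariates Epas1 passed at -0.52, -0.37 and -1.29, and Bhlhe41 did not with the muscle score (-0.30) and reversed with the endothelial score (0.050). The endothelial score separates the genotypes, so this covariate cannot be told apart from them, and 3938 genes were called with it, 2146 higher and 1792 lower. Added after the data were seen, Epas1 was -0.58 without the 4 muscle-rich libraries, -0.52 among the first 8, 0.075 among the last 8, and -0.53 with the muscle score and position together. Leaving out the muscle-rich libraries removes the KO libraries highest in Epas1. The fits with the muscle score use the same slope on it in both genotypes. Bhlhe41 lost the threshold in the settings without muscle-rich libraries (-0.26), among the last 8 (-0.13) and with both terms (-0.16), and Arnt among the first 8 (-0.20). Within the first 8 libraries the ratio of Epas1 to Hif1a passed (-0.62), while Arnt2 to Arnt (0.42), Bhlhe41 to Bhlhe40 (-0.73) and Arnt to Hif1a (-0.29) did not. Within the last 8, Arnt2 to Arnt did not pass (0.55). These sets hold 8 libraries each.

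The labels do not say that replicate numbers pair the libraries. Same-numbered libraries had residual correlations from -0.397 to 0.394, and number 2 was the only one whose libraries correlated best with each other. Such correlations cannot show whether animals were paired. The replicate block gave 0.94 for Mxi1, -0.36 for Bhlhe41 and -0.27 for Epas1 and changed no call of a member or ratio. DESeq2 size factors and the filters on low counts changed none either.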
